A study of Mus musculus with 15 samples.

Results

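The synaptic and axonal adhesion genes are the cell-surface molecules with which neurons hold a synaptic partner, a neighboring axon or a myelinating glial cell. They were chosen by gene name alone: the neurexins (Nrxn), neuroligins (Nlgn), leucine-rich repeat proteins (Lrrtm, Slitrk, Lrfn, Flrt1 and Flrt2), LAR-type receptor phosphatases (Ptprf, Ptprs, Ptprd), Il1rapl proteins, Cadm and Ncam proteins, contactins (Cntn), contactin-associated proteins (Cntnap) and numbered Igsf genes. The rule also asked for a mean normalized value of at least 1 over the 15 libraries. A normalized value is the number of reads of a gene scaled by one constant per library, without division by gene length. Among 54232 gene lines, 57 names fit, and 52 of them passed the minimum, among 16000 genes that did. The 5 that did not were Slitrk6 (mean 0.251), Igsf1 (0.165), Il1rapl2 (0.0225), Igsf23 (0.00937) and Igsf5 (0), whereas Lrrtm4 (1.12) lay just inside.

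The libraries came from female C57BL/6J mice aged 8 to 12 weeks, 5 per group. Naïve mice had no surgery and were group-housed. Sham mice had a laminectomy at T10 without the clip, and SCI mice had the laminectomy and a clip compression of the cord at that level. Both were caged individually, given an antibiotic and saline after surgery, and used 4 days after it. Each comparison with naïve mice therefore also compares housing and this aftercare. SCI mice alone had their bladders expressed by hand. Neurons labeled from hairy hindpaw skin with a fluorescent lectin were sorted from L2 to L6 dorsal root ganglia (DRG), about 3000 cells per library, and sequenced as 75-base single-end reads. Every library was counted as a separate mouse, and the highest correlation between libraries of a group was 0.989.

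At a synapse, presynaptic neurexins and LAR-type phosphatases reach across the cleft to bind neuroligins, Lrrtm, Slitrk, Lrfn and Il1rapl proteins. Along the axon, Cadm proteins link axon and Schwann cell, while contactins and contactin-associated proteins build the junctions that flank the nodes of Ranvier. In the DRG the cell bodies carry few synapses, and the proteins are sent to the central terminals in the spinal cord and to the peripheral axon.

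Reads in genes numbered 1321632 to 7465583 for the naïve group, 2568656 to 7389487 for sham and 3000636 to 4385542 for SCI, so that 1 read was worth between 0.141 and 0.791 of a normalized value. All these numbers lay below the total reads per sample that the paper states. The shallowest libraries were naïve 1 and 4, and sham 2 was the shallow one among the sham libraries. All 7 nociceptor markers had a mean above 10, which fits the neuronal label, but so did 8 of 9 satellite glia and 7 of 9 Schwann cell markers, 4 of 6 markers of myelinated neurons and 5 of 5 fibroblast markers. The glial sums were of the size of the nociceptor sum: nociceptor markers added up to between 1646 and 3864 over the 15 libraries, satellite glia markers to between 1465 and 2987, and Schwann cell markers to between 1340 and 3031. Macrophage markers were low (0 of 8 above 10), as were 4 of 7 vascular markers; no marker was at 0 in all libraries. How much of the adhesion signal came from glial RNA was not tested, and in bulk samples fewer cells of a type and less RNA per cell cannot be told apart.

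Promoter stretches are shown for the 3 members with the smallest p between SCI and sham mice by the limma fit described below. They are the neuroligin Nlgn2, the immunoglobulin protein Igsf3 and the leucine-rich repeat protein Slitrk3. Each is the 250 bases before the RefSeq start (GRCm38.p6), 5′ to 3′, with the GC box GGGCGG, or CCGCCC on the other strand, in capitals.
Nlgn2 (chr11:69837785-69838034, minus strand): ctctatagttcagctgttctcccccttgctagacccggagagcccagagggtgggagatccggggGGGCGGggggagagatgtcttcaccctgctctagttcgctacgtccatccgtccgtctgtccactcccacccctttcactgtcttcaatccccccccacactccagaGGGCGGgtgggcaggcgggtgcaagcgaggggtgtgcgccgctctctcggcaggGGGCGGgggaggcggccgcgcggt
Igsf3 (chr3:101376875-101377124, plus strand): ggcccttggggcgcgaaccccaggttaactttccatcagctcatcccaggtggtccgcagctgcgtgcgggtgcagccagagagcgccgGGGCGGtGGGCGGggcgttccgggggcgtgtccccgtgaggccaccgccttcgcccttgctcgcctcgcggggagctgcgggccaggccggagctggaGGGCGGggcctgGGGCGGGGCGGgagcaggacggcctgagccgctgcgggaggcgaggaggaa
Slitrk3 (chr3:73057067-73057316, minus strand): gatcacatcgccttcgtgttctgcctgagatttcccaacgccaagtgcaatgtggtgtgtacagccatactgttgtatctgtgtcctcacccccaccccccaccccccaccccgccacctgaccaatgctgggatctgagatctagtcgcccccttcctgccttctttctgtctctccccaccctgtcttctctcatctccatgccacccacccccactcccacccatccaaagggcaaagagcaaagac
The Nlgn2 stretch held 3 GC boxes and 18 CG dinucleotides, that of Igsf3 5 boxes (neighbors may overlap) and 27 CG, and that of Slitrk3 no box and 5 CG. The RefSeq and GENCODE starts differ for 2 of these genes. The Slitrk3 stretch lies wholly inside the GENCODE span of that gene (73047265 to 73057803). The Igsf3 stretch runs past the GENCODE start at 101377083. RefSeq promoters were matched for 37 members (48 starts). Their median GC content was 59.8% against 52.4% over all 32851 starts, and a GC box stood in 35.4% of the member stretches against 32.7% of all. The letters TATAAA (this strand only) were in 0 of 48 member stretches and in 7.59% of all. These matches describe letters in a window and say nothing of the factors that bind there.

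The adhesion genes were expressed over a wide range. Mean values ran from 1.12 (Lrrtm4) to 586 (Ptprf), 45 of 52 members were above 10 and 16 above 100, and 51 had reads in every library. The 5 genes Ptprf (586), Ptprs (429), Cadm3 (387), Cntn2 (385) and Ncam1 (363) made up 39.2% of the summed value of the members. Depth bore on the low end: the 15 libraries held 33033 reads of Ptprf together but 78 of Lrrtm4.

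**Figure D1:**
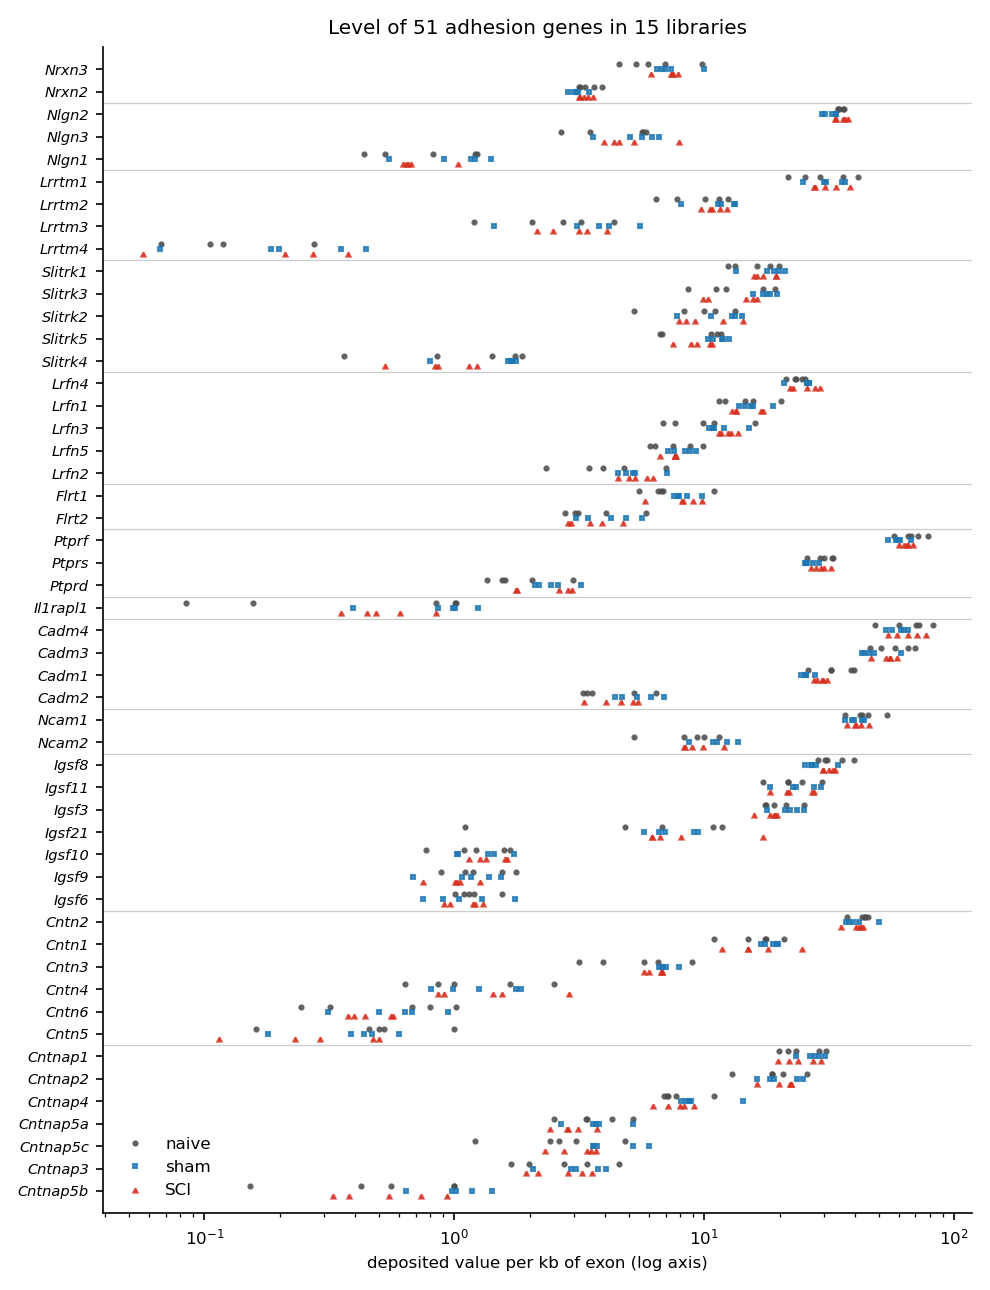
Level of 51 of the 52 members in 15 libraries, as normalized value per kb of exon on a log axis, with the families separated by lines and libraries at 0 left out. The 3 groups overlie each other for nearly every gene, and the members of the Lrrtm and Cntn families lie farthest apart, from 0.182 to 31.2 and from 0.421 to 41.4 per kb.

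To compare genes with each other, values were divided by the kb of exon of the gene (GENCODE M21). On this scale, Ptprf (64.0 per kb), the phosphatase LAR, and Cadm4 (63.9 per kb), known from Schwann cells that myelinate axons, stood level at the top. Next came Cadm3 (53.4 per kb), the axonal partner of Cadm4, Ncam1 (41.9 per kb) and Cntn2 (41.4 per kb). Then Nlgn2 (34.1 per kb), Lrrtm1 (31.2), Igsf8 (30.9), Cadm1 (29.5) and Ptprs (28.6) followed closely. The order depended little on the libraries used (Spearman's rho 0.999 between the order over all libraries and over naïve ones alone) and a little more on the transcript: with the longest transcript in place of all exons rho was 0.977 and Cadm1 moved from 9th to 3rd place.

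Within some families one member stood out, and in others the top members were close. Among the neurexins, Nrxn3 was at 7.10 and Nrxn2 at 3.29 per kb. For the neuroligins the leader was Nlgn2, known from inhibitory synapses, at 34.1 per kb, while Nlgn3 was at 5.09 and Nlgn1, known from excitatory synapses, at 0.873. Lrrtm1 led Lrrtm2 (10.7), Lrrtm3 (3.12) and Lrrtm4 (0.182), and Slitrk1 (17.3) and Slitrk3 (14.9) were the highest Slitrk genes. Of the contactins, Cntn2 was followed by Cntn1 (17.2), the paranodal contactin, and the remaining 4 lay between 0.421 and 6.37 per kb. Their partners Cntnap1 (25.5) and Cntnap2 (20.1), the paranodal and juxtaparanodal Caspr proteins, were far above the other 5 Cntnap genes.

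The highest member of most families is given next in every library, in the order of libraries 1 to 5 of a group, as are all such values that follow. The phosphatase gene Ptprf read 616, 595, 653, 716 and 524 in naïve, 498, 614, 553, 535 and 546 in sham and 595, 574, 624, 550 and 592 in SCI libraries. The 3 groups overlapped, and the sham values sat toward the low end of the range. The neuronal adhesion gene Ncam1 measured 371, 363, 466, 391 and 317 in naïve, 339, 318, 369, 345 and 376 in sham and 349, 323, 369, 397 and 350 in SCI libraries. Cntn2, a contactin of the juxtaparanode, measured 407, 397, 346, 419 and 409 in naïve, 367, 465, 385, 354 and 342 in sham and 376, 388, 395, 328 and 401 in SCI libraries. No group stood apart in either gene. For the Schwann cell partner Cadm4 the values were 152, 156, 177, 130 and 104 in naïve, 116, 141, 132, 122 and 136 in sham and 153, 128, 118, 167 and 141 in SCI libraries. Those of the paranodal gene Cntnap1 were 117, 180, 136, 127 and 169 in naïve, 163, 170, 179, 155 and 137 in sham and 173, 161, 129, 116 and 139 in SCI libraries. In both genes the group means differed by less than the SD of the naïve libraries.

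Among the leucine-rich repeat genes, which face neurexins, latrophilins or LAR-type phosphatases, the leaders of each family again overlapped between groups. Lrrtm1 was 76.7, 109, 125, 65.8 and 88.4 in naïve, 91.2, 75.6, 108, 92.7 and 110 in sham and 102, 83, 91.9, 116 and 84.1 in SCI libraries. Slitrk1 was 71.2, 98.3, 107, 66.5 and 87 in naïve, 95.9, 71.6, 113, 102 and 107 in sham and 104, 92.3, 84.7, 103 and 86.9 in SCI libraries. The lowest naïve values of both came from naïve 1 and 4, the shallowest libraries. Lrfn4, a postsynaptic protein that binds PSD-95, was at 77.5, 78.5, 83.1, 71.6 and 85.2 in naïve, 87.1, 69.9, 88.1, 86.4 and 88 in sham and 87.1, 93.3, 76.1, 97.6 and 74.3 in SCI libraries. Flrt1, a ligand of latrophilins, was at 39.5, 38.3, 40.1, 32.2 and 64.3 in naïve, 57.5, 45.9, 46.7, 50 and 44.4 in sham and 47.8, 52.7, 57.3, 34.1 and 48.1 in SCI libraries. One sham library was low for Lrfn4 (sham 2) and one naïve library high for Flrt1 (naïve 5). Il1rapl1, the one Il1rapl gene above the minimum, was rare, at 0.791, 9.41, 9.51, 1.46 and 7.87 in naïve, 11.6, 3.66, 9.42, 9.24 and 8.07 in sham and 4.53, 7.87, 3.3, 5.68 and 4.19 in SCI libraries, and naïve 1 and 4 were the lowest.

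Spread was in general larger in the members of low level. The coefficient of variation within groups was 4.68% for Nlgn2, the steadiest of the 52, of which counting alone gave 4.10%. It was 7.50% for Nrxn2, 7.64% for Ptprs and 8.57% for Ptprf, had a median of 20.9% over the members, and reached 75.2% for Lrrtm4, where counting alone gave 70.7%. Igsf21 (49.0% against 20.5% from counting) and Cntn4 (49.6% against 18.6%) varied well beyond counting. The sum over the 52 members was more even, at 5540 ± 171 in naïve, 5462 ± 136 in sham and 5452 ± 130 in SCI libraries (SD, n = 5), or 0.503% to 0.546% of the reads in genes.

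**Figure D2:**
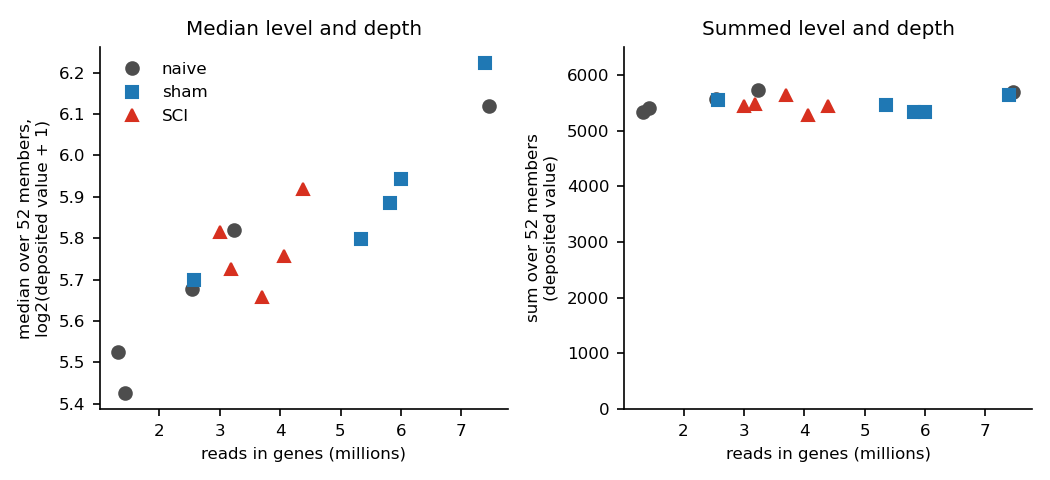
Median of the 52 members as log2(normalized value + 1) (left) and their summed normalized value (right) in each of the 15 libraries against reads in genes. The median was 5.43 and 5.53 in the shallowest libraries and 6.12 and 6.22 in the deepest, while the sum stayed between 5275 and 5720.

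Depth went with the level of the middle-ranked members. On the log2(normalized value + 1) scale the median over the 52 members was 5.53 in naïve 1 and 5.43 in naïve 4, and 6.12 in naïve 5 and 6.22 in sham 1, the deepest libraries. Sham libraries were the deepest as a group, with a median of 5815348 reads against 2532675 in naïve and 3698926 in SCI libraries, so depth and group are partly confounded, and each comparison was also fitted with depth as a covariate. With median-ratio scaling in place of the deposited scaling, the median of all genes moved by -0.07 (SCI vs. naïve), 0.07 (SCI vs. sham) and -0.13 (sham vs. naïve).

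The first comparison asked how the adhesion genes of SCI mice differed from those of unoperated mice. No member passed the adjusted threshold. The log2 differences ran from -0.42 (Cntn5) to 0.49 (Igsf21), 38 of 52 lay within 0.2 of 0, and for 47 the 95% interval lay within 1 log2 unit. Igsf21 was 33.9 in SCI 1 and 12.2 to 16.0 in the other SCI libraries. Its median was 13.4 in naïve and 13.1 in SCI libraries. Cntn5 had 126 reads over the 15 libraries together. By limma, a linear model fitted to log2(normalized value + 1) of all 16000 genes with p-values adjusted over all of them, 0 of 52 members passed an adjusted p of 0.05 (0% of all genes tested did), and edgeR and DESeq2 on the reads behind the values also called 0 (0% and 0% of genes). At an unadjusted p of 0.05, limma gave 0 members, where 4.53% of all genes passed (3.73% higher, 0.794% lower), edgeR 1 (3.17% of genes) and DESeq2 3 (2.94%). The groups were separate in 0 members (0.462% of genes), and 29 members were higher against 69.7% of all genes. The median over the members was 0.02, and over all genes 0.08. It ran from -0.0277 without naïve 4 to 0.121 without naïve 5, and was -0.022 without naïve 1. With median-ratio scaling 22 members were higher, against 53.1% of all genes.

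The 5 members with the smallest p between SCI and naïve mice were Cadm1, Lrfn3, Ptprd, Lrfn2 and Cntnap5a. Cadm1, an adhesion protein of axons, synapses and glia, was 415, 336, 337, 404 and 270 in naïve, 267, 289, 268, 265 and 255 in sham and 308, 286, 322, 311 and 294 in SCI libraries. The SCI values fell inside the naïve range, whose ends were naïve 1 at 415 and naïve 5 at 270, and the log2 difference was -0.20 (SE 0.10, limma adjusted p = 0.898). Lrfn3 was 22.1, 31.5, 28.5, 19.7 and 46.1 in naïve, 43.6, 31.7, 30.2, 31.3 and 34.7 in sham and 35.9, 37, 39.2, 33.6 and 33.1 in SCI libraries. Ptprd, a presynaptic phosphatase gene spanning over 2 Mb, was 36.4, 46.7, 35.6, 30.7 and 68.2 in naïve, 73.3, 48, 49.7, 59 and 55.4 in sham and 40.2, 67.7, 59.6, 40.5 and 64.9 in SCI libraries. Among the naïve libraries, naïve 5 was the highest and naïve 4 the lowest for both genes, and the groups overlapped. The log2 differences were 0.32 (SE 0.18) for Lrfn3 and 0.34 (SE 0.20) for Ptprd, with the same adjusted p of 0.898 by limma. Lrfn2 was 12.7, 11, 7.44, 15.3 and 22.5 in naïve, 22.7, 16.7, 14.5, 16.8 and 15.6 in sham and 19, 16.9, 14.5, 16 and 19.9 in SCI libraries. Cntnap5a, a less studied Caspr relative, was 46.7, 36.7, 27.3, 37.3 and 56.8 in naïve, 57, 29.3, 40.4, 41.7 and 39.1 in sham and 30.8, 31.2, 34.3, 26.3 and 40.8 in SCI libraries. In both genes the groups overlapped, with log2 differences of 0.38 (SE 0.22) and -0.29 (SE 0.19). With depth as a covariate the differences were -0.10 for Cadm1, 0.14 for Lrfn3, 0.17 for Ptprd, 0.28 for Lrfn2 and -0.39 for Cntnap5a. Single naïve libraries moved 4 of them: without naïve 5 Lrfn3 was at 0.495, Ptprd at 0.517 and Cntnap5a at -0.162, without naïve 4 Lrfn3 was at 0.199, and without naïve 3 Lrfn2 was at 0.196.

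The second comparison, SCI vs. sham, asked what the cord injury, with its bladder care, added to the surgery. Again no member was called: 0 of 52 by limma (0% of all genes), 0 by edgeR (0%) and 0 by DESeq2 (0.025% of genes). Of the members, 3 had an unadjusted p under 0.05 by limma, 1 higher and 2 lower, where 3.89% of all genes did (0.65% higher, 3.24% lower). At that level edgeR gave 3 members (5.93% of genes), Nrxn2 and Nlgn2 higher and Cntnap5b lower. DESeq2 gave 4 (5.68%), Nlgn2 higher and Igsf3, Slitrk4 and Cntnap5b lower. Groups were separate in 0 members (1.51% of genes). Of the members 16 were higher, against 34.3% of all genes, and the median was -0.07, as it was over all genes. The median was -0.136 without sham 2, -0.135 without SCI 2 and -0.0375 without sham 1. With median-ratio scaling 26 members were higher and 26 lower, and 49.5% of all genes were higher. In 36 of 52 members the difference was within 0.2, and in 45 the 95% interval was within 1 log2 unit.

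**Figure D3:**
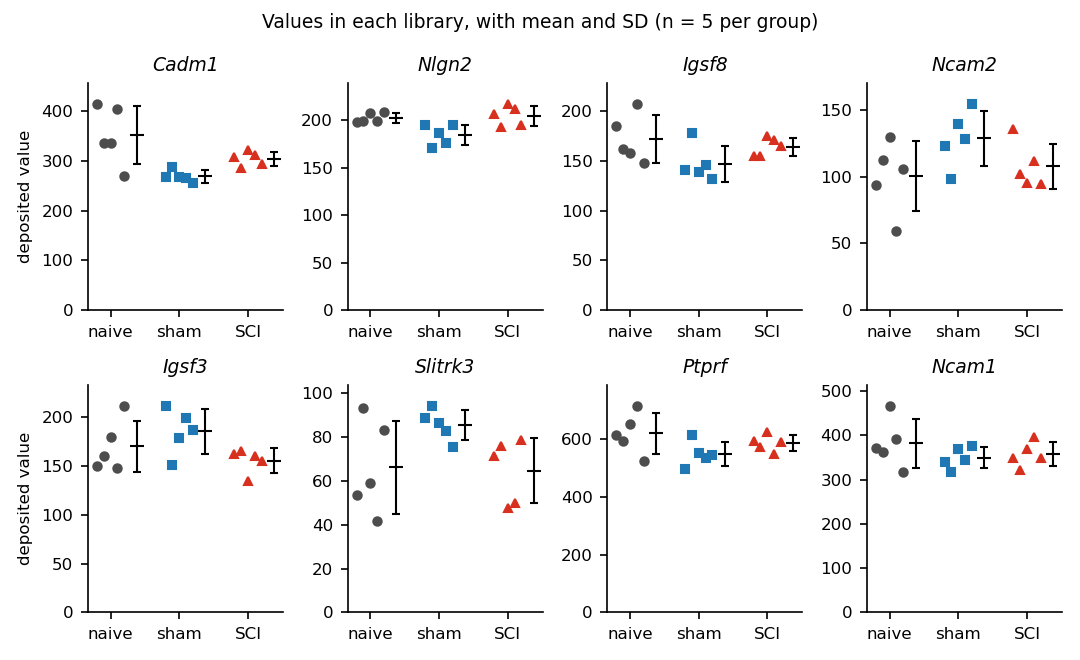
Normalized value in each library (points) with the mean and SD beside them for 8 members, n = 5 per group, each axis starting at 0. Sham values of Nlgn2 (171 to 195) all lie below the naïve values (198 to 209), and in the other 7 panels the groups overlap.

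Nlgn2 was the one member higher in SCI than in sham mice at this unadjusted level by limma, and the steadiest. It was 198, 199, 207, 200 and 209 in naïve, 195, 171, 187, 176 and 195 in sham and 207, 193, 217, 212 and 195 in SCI libraries. Every sham value lay below every naïve value, and the SCI values, 193 to 217, overlapped both. The log2 difference of SCI from sham was 0.15 (SE 0.07, limma adjusted p = 0.897), and with depth as a covariate 0.17 (limma adjusted p = 0.9996). SCI and naïve mice differed by 0.02 (SE 0.07). Nlgn2 lies on chromosome 11 (69823122 to 69837784, GRCm38) and spans 14.7 kb.

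Igsf3 and Slitrk3 were the members lower in SCI than in sham mice at the unadjusted level by limma. DESeq2 had Igsf3 but not Slitrk3 at that level, and edgeR had neither. Igsf3 (chromosome 3, 101377083 to 101463059), an immunoglobulin-domain membrane protein, was 150, 161, 180, 148 and 212 in naïve, 212, 151, 179, 200 and 188 in sham and 163, 166, 134, 161 and 155 in SCI libraries. Sham 2, the shallow sham library, was the one sham value within the SCI range, and the log2 difference was -0.25 (SE 0.11, limma adjusted p = 0.897), and with depth as a covariate -0.14. Slitrk3 (chromosome 3, 73047265 to 73057803), which at inhibitory synapses binds Ptprd, was 53.8, 93.4, 59.1, 41.7 and 83.1 in naïve, 88.9, 94.3, 86.6, 83 and 75.8 in sham and 71.3, 75.9, 47.8, 50.1 and 78.9 in SCI libraries. The sham values lay close together, from 75.8 to 94.3, and those of SCI and naïve mice were spread around and below them. The difference of SCI from sham was -0.43 (SE 0.19, limma adjusted p = 0.897), and with depth as a covariate -0.31.

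Cntnap5b and Slitrk4 followed, both at low level. Cntnap5b was 0.791, 5.19, 2.89, 2.19 and 5.2 in naïve, 7.39, 6.1, 5.3, 5.07 and 3.33 in sham and 1.7, 3.82, 1.98, 2.84 and 4.88 in SCI libraries. Slitrk4 was 3.16, 12.3, 7.44, 15.3 and 16.3 in naïve, 14.9, 15.4, 14.3, 14.7 and 7.01 in sham and 10.7, 10, 4.61, 7.49 and 7.33 in SCI libraries. SCI libraries were low in both, but one sham library (sham 5) was as low, and the log2 differences of -0.70 (SE 0.33) and -0.66 (SE 0.35) had a limma adjusted p of 0.897. With depth as a covariate they were -0.48 and -0.49. All 5 Slitrk genes and 6 of 7 Cntnap genes were lower in SCI than in sham mice, and so were 65.7% of all genes. Other families went the other way: 3 of 4 Cadm, 3 of 5 Lrfn and 2 of 3 Ptpr genes were higher. All 5 Slitrk and all 7 Cntnap genes were higher in sham than in naïve mice, a comparison that shares the sham libraries. Removing 1 library changed which members passed the unadjusted level: 0 did without SCI 3 (2.18% of all genes then passed), 1 without sham 1, sham 3, sham 4 or SCI 4 (2.46% to 4.52%), 5 without sham 2 (14.8%) or naïve 5 (5.59%), and 6 without naïve 1 (4.76%).

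The third comparison, sham vs. naïve, asked what the laminectomy with its aftercare and housing changed. It had the most members at the unadjusted level, yet 0 of 52 members passed an adjusted p of 0.05 by limma (0% of all genes), by edgeR (0%) or by DESeq2 (0%), which gave an adjusted p to 14 of the members only. Of the members, 8 had an unadjusted p under 0.05 by limma (16.6% of all genes did, 13.4% higher and 3.19% lower). Ncam2, Ptprd, Cntnap5c, Slitrk3 and Cntnap5b had the higher values in sham mice and Cadm1, Cadm3 and Igsf8 the lower. The read-based tools also had 8 each at this level (10.7% of genes by edgeR and 11.4% by DESeq2), all of them lower in sham mice (6.88% and 8.05% of genes): Cadm1, Cadm3, Igsf8, Nlgn2, Nrxn2, Ncam1, Ptprf and Ptprs. Only Nlgn2 had groups that did not overlap (0.644% of genes).

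Cadm1 had the smallest p, with the values given above: sham libraries read 255 to 289 and naïve ones 270 to 415, so that naïve 5, the deep naïve library, was the one naïve value in the sham range. The log2 difference was -0.37 (SE 0.10, limma adjusted p = 0.300), and with depth as a covariate -0.17 (limma adjusted p = 0.9997). DESeq2 gave Cadm1 an adjusted p of 0.0910 and Nlgn2 the same. Nlgn2, compared through the same sham libraries as above, differed by -0.13 (SE 0.07, limma adjusted p = 0.312), and with depth by -0.18. Cadm1 lies on chromosome 9 (47530173 to 47857637) over 327 kb.

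Cntnap5c, Ncam2, Igsf8 and Slitrk3 had the next smallest p. Cntnap5c was 4.74, 12, 10.3, 9.5 and 19 in naïve, 23.7, 14.6, 14.1, 20.5 and 14.2 in sham and 13.3, 14.6, 13.8, 9.04 and 10.8 in SCI libraries. Ncam2, a relative of Ncam1, was 94.1, 113, 129, 59.2 and 106 in naïve, 123, 98.4, 139, 128 and 155 in sham and 135, 102, 95.2, 112 and 94.2 in SCI libraries. Naïve 1 was the lowest library for Cntnap5c and naïve 4 for Ncam2, and the log2 differences were 0.69 (SE 0.27) and 0.39 (SE 0.17). Igsf8, a partner of tetraspanins, was 185, 162, 158, 208 and 148 in naïve, 141, 178, 139, 145 and 132 in sham and 155, 155, 175, 171 and 165 in SCI libraries. Sham 2 was the sham library that reached the naïve values of Igsf8, and the log2 difference was -0.22 (SE 0.10). Slitrk3 differed by 0.42 (SE 0.19), and all 4 genes had a limma adjusted p of 0.300. With depth as a covariate the differences were 0.20 for Cntnap5c, 0.15 for Ncam2, -0.04 for Igsf8 and 0.19 for Slitrk3. Without naïve 4 the difference was 0.212 for Ncam2 and 0.274 for Slitrk3, and without naïve 1 it was 0.444 for Cntnap5c.

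The direction of the members differed between levels, without a steady trend from low to high. Of the 29 members with a mean between 10 and 100, 28 were higher in sham than in naïve mice, Nrxn2 being the exception, and of all genes at that level 15.1% were lower. Above 100, 7 of 16 members were higher and 9 lower, and 51.2% of all genes there were lower. Under 10, 4 of 7 members were higher and 3 lower, with a median of 0.07. Of all genes at that level 15.7% were lower, with a median of 0.32. Over the 52, 39 were higher against 77.1% of all genes, with a median of 0.17 against 0.17. The members' median was 0.0911 without naïve 1, 0.106 without naïve 4 and 0.0963 without sham 1. With depth as a covariate 18 of the 52 were higher and the median was -0.05, against 54.4% and 0.01 over all genes. Median-ratio scaling left 27 higher and 25 lower, with 56.8% of all genes higher.

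**Figure D4:**
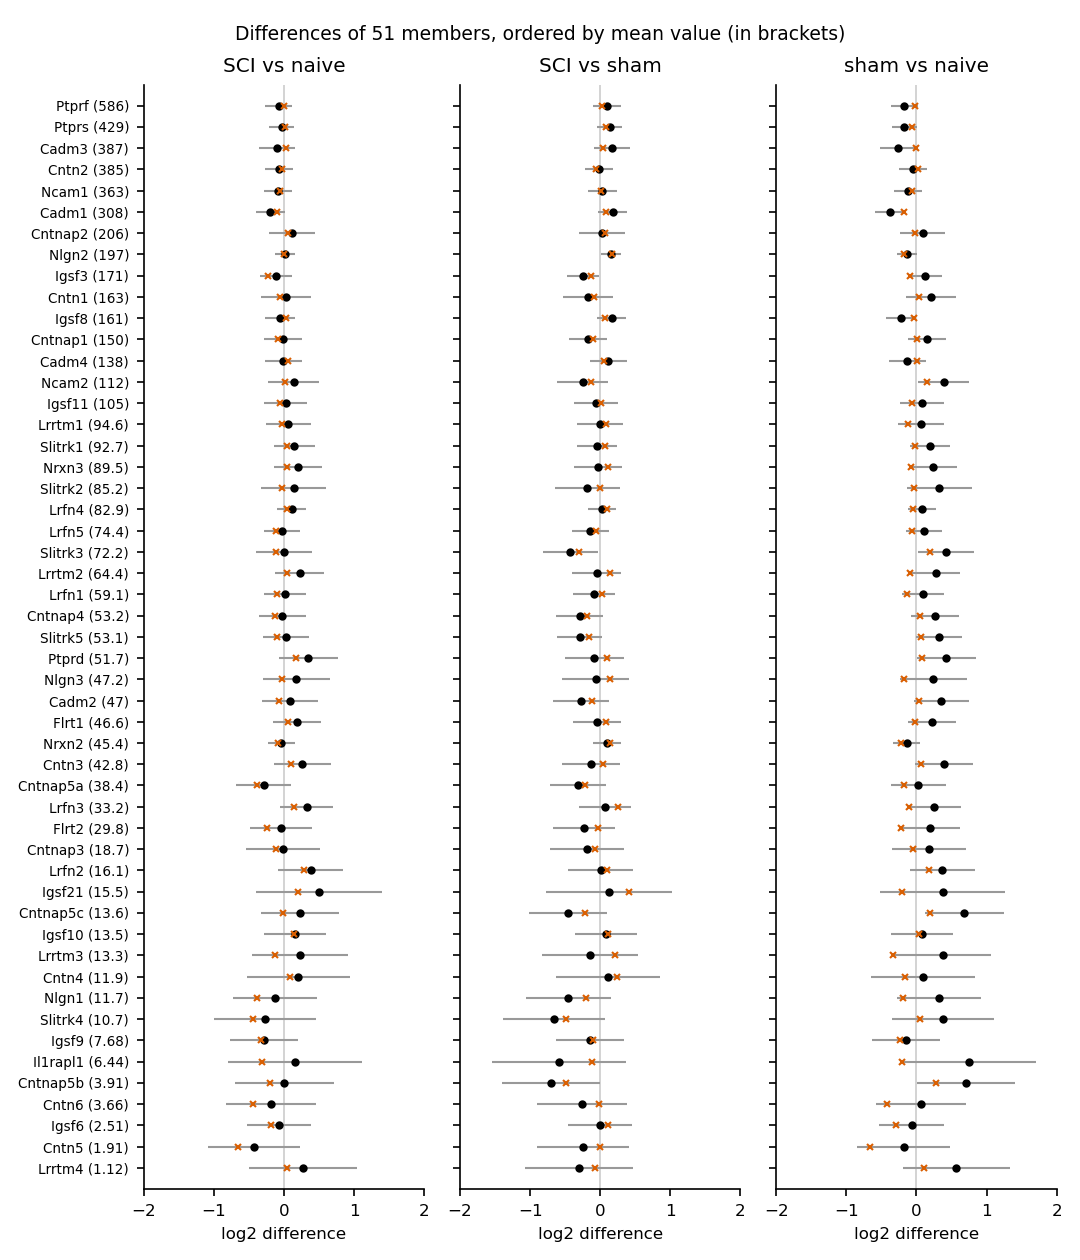
Log2 difference (dots) with its 95% interval (bars) for 51 of the 52 members in the 3 comparisons, ordered by mean normalized value, with the difference from the fit with depth as a covariate as crosses. In sham vs. naïve the members with means of 10 to 100 lie to the right of 0 in 28 of 29 cases, and in 10 of 29 once depth is in the fit.

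Cell marker levels were also set side by side in this comparison, and 0 markers passed the adjusted threshold by limma. The values of 7 of 7 nociceptor, 9 of 9 Schwann cell and 6 of 9 satellite glia markers were lower after sham surgery than without it, with medians of -0.55, -0.36 and -0.21. Higher values after sham surgery were found for 8 of 8 macrophage (median 0.39), 6 of 6 vascular (0.36), 4 of 6 myelinated neuron (0.32) and 3 of 5 fibroblast markers (0.10). Of all genes 77.1% were higher and 22.9% lower, with a median of 0.17. Every macrophage marker had a mean under 10, and of all genes at that level 15.7% were lower, with a median of 0.32. Every nociceptor marker and most of the Schwann cell and satellite glia markers had a mean above 100. Of all genes at that level 51.2% were lower, with a median of -0.01. The Schwann cell marker sum was 1360 to 3031 (naïve), 1340 to 1995 (sham) and 1803 to 2020 (SCI), the satellite glia sum 1465 to 2987, 1584 to 2160 and 1858 to 2317, and the nociceptor sum 1769 to 3864, 1646 to 2565 and 2059 to 2487. The sums also went with depth. In naïve 1 and 4, the shallowest libraries, the nociceptor sum was 3584 and 3864 and the Schwann cell sum 3031 and 2860. In naïve 5 and sham 1, the deepest, they were 1769 and 1646, and 1360 and 1340. The part of depth in the marker differences was not tested. The part of these cell types in the differences of the members was not tested either. Cadm3 also shares exon bases with the same-strand gene Ackr1 (mean 47.2), and the strand setting of the counting is not given in the sources used here.

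Gene length was another shared feature. Of the members, 13 span over 500 kb, among them Ptprd, Cntnap2, Nrxn3 and Il1rapl1. Of these 13, 12 were higher in sham than in naïve mice (median 0.33) and 11 lower in SCI than in sham mice (median -0.27). Over all 210 genes of that length the medians were 0.26 and -0.16, and 85.7% and 19.0% were higher. With depth as a covariate the medians of the long members were -0.01 and -0.07.

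The genes around the adhesion proteins were counted in the same way, and 0 of the tested genes of any list passed an adjusted p of 0.05 by limma or by DESeq2. Trans-synaptic partners (24 of 25 tested) were higher in sham than in naïve mice in 20 cases and lower in 4, and lower in SCI than in sham mice in 18. Of all genes, 77.1% were higher in sham than in naïve mice, and 65.7% were lower in SCI than in sham mice. Here the smallest p between SCI and sham were those of Clstn2, a calsyntenin (-0.59, SE 0.22), and the teneurin Tenm2 (-0.77, SE 0.31), between sham and naïve those of Clstn1 (-0.32) and netrin-G1 Ntng1 (1.18), and between SCI and naïve those of Ntng2 (0.42) and Cbln1 (-0.48). The limma adjusted p of these genes was 0.300 or above.

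Intracellular scaffolds (31 tested) were higher in sham than in naïve mice in 24 cases and lower in 7, and 77.1% of all genes were higher. The smallest p were those of Cask, a neurexin-binding kinase (0.27, SE 0.09), and Dlg4, which encodes PSD-95 (-0.19, SE 0.07). Shank1, a postsynaptic scaffold, had the smallest p in SCI against sham (-0.60, SE 0.19), followed by Epb41l1 (0.16), and between SCI and naïve the smallest p were those of Ppfia2, a liprin bound by LAR-type phosphatases (0.25), and Apba2 (0.21). Of 19 genes of the L1 family and the node of Ranvier, 14 were higher in sham than in naïve mice, as were 77.1% of all genes. Chl1, a close homolog of L1, differed from naïve by 0.25 in sham and 0.28 in SCI mice, comparisons that share the naïve libraries. L1cam differed by -0.40 between sham and naïve and by 0.25 between SCI and sham, Nrcam differed there by -0.29, and Sptbn4 by 0.23 between SCI and naïve. None of these genes passed the adjusted threshold.

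Splicing regulators, which set neurexin isoforms, had 4 higher and 7 lower values of 11 in sham against naïve mice, where 77.1% of all genes were higher. That share is over all levels: above a mean of 100, where Rbfox1 and Rbfox3 lay, 51.2% of all genes were lower. Rbfox3, the neuronal protein NeuN, differed by -0.30 between sham and naïve and by 0.28 between SCI and sham, comparisons that share the sham libraries, Rbfox1 by -0.22 and -0.11 (SCI vs. naïve), Khdrbs2 by -0.36 (SCI vs. sham) and Nova1 by 0.31 (SCI vs. naïve). Of the sheddases that cut adhesion proteins from the surface, 5 of 6 were tested, and Adam17 differed by 0.37 (sham vs. naïve), -0.29 (SCI vs. sham) and 0.08 (SCI vs. naïve), while Mmp2 differed by 0.39, -0.62 and -0.24. The adjusted p of these genes was 0.300 or above. Values are per gene, so changes among neurexin splice forms were not analysed here.

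Leaving out 1 library moved the sham vs. naïve result. Without naïve 5, limma called 4 members, Cadm1, Cntn3, Cntnap5c and Ptprd, where 11% of all genes were then called. The 8 members at the unadjusted level became 21 without naïve 5 (35.3% of all genes then passed), 13 without sham 2 (33.5%), 5 without sham 3 (10.6%), 4 without sham 5 (9.29%), 2 without naïve 4, sham 1 or sham 4 (7.32% to 10.0%), and 1 without naïve 1 (8.12%). The 0 between SCI and naïve became 7 without naïve 5 (16.1%). With weights for library quality it called 5 between sham and naïve (Cadm1, Cadm3, Igsf8, Lrfn2 and Ptprs, 22.7% of genes) and 7 between SCI and sham (Cadm1, Cadm3, Cntnap5a, Igsf3, Igsf8, Ncam2 and Nlgn1, 19.1% of genes).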

How the data were processed

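RNA-seq was done on 15 libraries of sorted DRG neurons, 5 per group (naïve, sham, SCI), with a stranded mRNA kit. Per the labels, the authors used HISAT2, HTSeq and DESeq2 with build mm10; versions, annotation and strand setting are not given in the sources used here. The deposited signal values are headed RPKM but were not divided by gene length: each is a whole multiple of 1 step per library (0 of 316894 non-zero values were off by more than 1e-06 reads), so whole reads could be recovered. The authors' group means were not used. Of the lines, 27 had no gene name (at most 0.21% of reads) and stayed out.

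Values were tested as log2(value + 1) with limma 3.58.1 (trend, R 4.3.3), all 3 groups in 1 fit, for the 16000 genes whose mean reached 1, with Benjamini-Hochberg adjustment and a threshold of 0.05. edgeR 4.0.16 and DESeq2 1.42.0 on the recovered reads were alternatives. The tests were tried on simulated data first. That trial gave all genes the same spread beyond counting and no tie between depth and level, so it does not give error rates for these data. Fold changes are on the log2(value + 1) scale and understate those of low genes. P-values weigh a group difference against the spread between libraries within groups, each library counted as a separate mouse.

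Members and gene lists were chosen with earlier results of these data known. Values in every library are given for the 5 members with the smallest p per comparison, the highest per kb of each family, members past the threshold and Cadm1 and Nlgn2, and log2 differences for all of these but the highest per kb. One member and 1 overlap are not reported here. From each gene list the 2 smallest p per comparison are named. Exon kb, gene spans and overlaps came from GENCODE M21, and 17 members share exon bases with another gene. Reads that fit several close copies, as Cntnap5a, Cntnap5b and Cntnap5c may have, could be split differently by another count. The alternatives were pseudocount, filter, scaling, tool, depth, quality weights, replicate block, 2-group fits and libraries left out. Versions of other tools were Python 3.11.15, pandas 2.3.3 and matplotlib 3.10.9.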

Additional observations from a re-analysis of the deposited data

Results flagged for a closer look

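In 24 members, 72 groups of 5 were looked at for a library far from the other 4, with a gap above 0.71 of the whole range. There were 4, and chance gives about 1 in 20. Flrt1 was 64.3 in naïve 5 and 32.2 to 40.1 in the other naïve libraries. Lrfn2 was 22.7 in sham 1 and 14.5 to 16.8 in the others. Lrfn4 was 69.9 in sham 2 against 86.4 to 88.1, and Slitrk4 was 7.01 in sham 5 against 14.3 to 15.4. Naïve 5 and sham 1 were the deepest libraries of their groups and sham 2 the shallowest of its group.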

How the results depend on the processing

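No member was called under any scaling, pseudocount, filter, count tool or 2-group fit. Members called between SCI and sham numbered 7 with library quality weights and 4 with sham 2, naïve 1 and naïve 4 left out together (Igsf3, Igsf8, Il1rapl1 and Nlgn1, where 6.88% of all genes were called; chosen after seeing the data, as was DESeq2 on the 2 groups compared). Between sham and naïve, 5 were called with quality weights and 0 to 4 with 1 library left out, the 4 without naïve 5. The sham vs. naïve median over the members was -0.0481 with depth as a covariate. The difference of Nlgn2 between SCI and naïve, 0.02 in the report, was below 0 at -0.0585 with median-ratio scaling, -0.032 with TMM, -0.0348 with edgeR, -0.0415 and -0.0372 with DESeq2 on 3 and 2 groups, -0.00704 with depth and -0.00318 without naïve 1 and 4 (with or without sham 2 as well). It was -0.00685 to 0.036 with 1 library left out, below 0 in 1 of 15 cases (without SCI 3). The cause was not tested.

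Counts at an unadjusted p of 0.05 moved most; the share of all genes that passed is given in brackets. With 1 library left out they were 0 to 7 (3.2% to 16.1%; SCI vs. naïve), 0 to 6 (2.18% to 14.8%; SCI vs. sham) and 1 to 21 (7.32% to 35.3%; sham vs. naïve, the 1 without naïve 1 and the 21 without naïve 5). In the same order, they were 3 (2.79%), 9 (7.4%) and 1 (2.57%) without naïve 1 and 4, and 5 (6%), 15 (28.5%) and 2 (11.5%) without sham 2 as well. Quality weights gave 3 (10.6%), 16 (36.5%) and 16 (39.1%), depth 3 (4.69%), 3 (3.29%) and 4 (1.99%), DESeq2 on 2 groups 1 (2.26%), 11 (8.42%) and 8 (7.72%), and limma on 2 groups 8 (8.99%; SCI vs. sham) and 4 (9.41%; sham vs. naïve). Replicate numbers did not pair the samples: same-numbered libraries correlated at -0.354 to 0.339, above 0.1 in 3 of 15 pairs. With the replicate block 0 members were called, and 1 had an unadjusted p under 0.05 between SCI and sham (3.29% of all genes). Depth limits the members with means under 10, where 1 read in naïve 1 is worth 0.791.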
